A study of Homo sapiens with 8 samples.

Results

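Cells labelled RS4;11 and BTG1 shRNA were compared with cells labelled RS4;11 and control shRNA vector, both after 8 h in vehicle. RS4;11 is a leukemia line of early B-lineage cells that carries the KMT2A-AFF1 (MLL-AF4) fusion. The comparison used the arrays whose titles name BTG1 or Control together with vehicle, 2 for each shRNA, which are 4 of the 8 arrays of the study. The other 4 arrays hold the same shRNA groups after 8 h in prednisolone, a synthetic glucocorticoid, and entered as a second set and in the estimate of the spread. Total RNA was hybridised to Affymetrix exon arrays, which gave log2 values for 17881 transcript clusters, so a difference of 1 is a 2-fold change. The labels name a single shRNA against BTG1, no untransduced cells and no separate cultures. The p-values therefore speak only for the variation among these arrays, and that variation may be technical.

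BTG1 belongs to the BTG/TOB family of antiproliferative proteins. These proteins bind the CCR4-NOT deadenylase, which shortens the poly(A) tails of mRNAs, and BTG1 also binds the arginine methyltransferase PRMT1. In B-cell precursor leukemia the BTG1 gene is a recurrent target of deletion, and loss of its product has been linked to the glucocorticoid receptor, NR3C1, which drives the killing of lymphoid cells by glucocorticoids. B-cell precursors are recognised by the transcription factors EBF1 and PAX5 and by the pre-B-cell receptor, T-lineage cells by the CD3 chains of the T-cell receptor.

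BTG1 itself was lower on the arrays labelled BTG1 shRNA. Its level was 9.34 and 9.36 on the control arrays and 7.15 and 7.42 on the arrays labelled BTG1 shRNA. The groups did not overlap, and the difference was -2.06 ± 0.20 (SE, n = 2 and 2; limma adjusted p = 0.000388), a 4.16-fold lower level. The transcript cluster also carries the symbol of the noncoding RNA LINC01619, so the value can hold signal from both.

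The lineage markers did not follow the label of the BTG1 shRNA arrays. All 5 measured markers of B-cell precursors (CD79A, CD79B, PAX5, EBF1 and VPREB1) lay above the median of all values, 5.3, on the control arrays, with means of 9.28 to 10.26. On the arrays labelled BTG1 shRNA the same 5 had means of 3.68 to 4.91, all below that median, and 5 of 5 were called lower. Of the T-cell markers, CD3D, CD3E, CD3G, CD247 and LCK were called higher and lay above the median on the arrays labelled BTG1 shRNA, where only LCK did so on the control arrays. CD2, the other T-cell marker, lay near the floor on all 4 arrays, at 2.83 to 3.16. The markers of the arrays labelled BTG1 shRNA therefore go against the RS4;11 label, and those arrays are named by their label below. Whether they come from RS4;11 cells was not tested, and the shRNA and a difference in the cells cannot be told apart in this comparison. In bulk RNA, fewer cells of a type and less RNA per cell cannot be told apart either.

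Markers of other cell types were read in the same way. None of the 5 measured myeloid markers (CD14, CSF1R, MPO, LYZ, CSF3R) lay above the median in either group, with means of 3.18 to 5.23 on the control arrays and 2.72 to 4.82 on the arrays labelled BTG1 shRNA. CSF1R was called lower, but not without replicate 2 labelled BTG1 shRNA (limma adjusted p = 0.0523). Among 6 NK-cell markers, means ran from 3.03 to 9.77 in control cells and from 2.96 to 7.92 on the arrays labelled BTG1 shRNA, and in both groups NKG7 alone lay above the median. Of 3 measured erythroid or platelet markers KLF1 alone did so in both groups. Of 6 stromal or epithelial markers, COL1A1 and KRT8 lay above it in both groups and KRT18 on the arrays labelled BTG1 shRNA. KRT18 was called higher, but not without replicate 2 of that label (limma adjusted p = 0.0773).

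Of the 17881 clusters, 2623 (14.7%) passed an adjusted p of 0.05. Of these, 1512 were higher on the arrays labelled BTG1 shRNA (8.46% of all clusters) and 1111 were lower (6.21%). These shares are the reference for the counts of list members below. At an unadjusted p under 0.05 there were 5021. The count turned on single arrays: 5958 passed without control replicate 2, 1492 without replicate 1 labelled BTG1 shRNA and 1289 without replicate 2 of that label. With the fold as the only criterion, 1562 clusters were over 2-fold higher (8.74%) and 979 over 2-fold lower (5.48%), and without control replicate 2 there were 4283 in all. The changes were large: the median size among called clusters was 1.46 on the log2 scale, and 148 clusters differed over 16-fold. An exact permutation test over 2 arrays against 2 cannot go below p = 0.333, so single genes rest on the model across all clusters.

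The control arrays were the less even ones. The median absolute difference between replicates was 0.441 for control shRNA and 0.185 for BTG1 shRNA under vehicle. The interquartile range of control replicate 1 was 2.95, against 3.39 to 3.80 on the other 7 arrays. Among clusters below the median in both groups, control replicate 1 read 0.36 higher than control replicate 2 at the median. The median difference over all clusters was -0.15, and it was -0.04 after quantile normalization, so small differences at dim clusters move with the scaling.

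Genes of the T-cell receptor complex showed the largest median difference of any gene list. Of 6 measured members 5 were called higher and 0 lower, with a median difference of 6.44. CD3D, a signalling chain of the receptor, stood at 3.42 and 3.32 on the control arrays and at 11.44 and 11.49 on the arrays labelled BTG1 shRNA, a difference of 8.10 ± 0.17 (SE; limma adjusted p = 3.02e-06). CD3G stood at 3.83 and 3.13 against 11.57 and 11.62, a difference of 8.12 ± 0.25. CD3E stood at 4.45 and 3.92 against 10.94 and 11.23, a difference of 6.90 ± 0.30. These chains moved from the dim end of the arrays to the bright end, with replicates close together. CD247, the zeta chain, differed by 3.14 ± 0.36, to 7.88 and 7.68, and TRAT1, an adaptor that stabilises the receptor at the surface, from 3.13 and 2.86 to 9.43 and 8.51. PTCRA, the pre-T-cell receptor alpha chain, was not called, at 6.50 and 5.84 against 5.51 and 5.18 (limma adjusted p = 0.0922). It passed as lower without control replicate 2 (limma adjusted p = 0.0232), with arrays centred on their medians (0.0466) and with the replicate block (0.0107).

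The relay downstream of the receptor was higher as well. Of 19 measured members of T-cell receptor signalling, 13 were called higher and 0 lower, with a median difference of 1.55. SH2D1A, the adaptor SAP, showed the largest difference of the list, 6.35 ± 0.19, from 3.31 and 3.34 to 9.70 and 9.65. FYB1, an adaptor that links the receptor to integrins, differed by 5.47 ± 0.24. LCK, the kinase that starts receptor signalling, was present in both groups and differed by 2.90 ± 0.18, from 7.71 and 7.45 to 10.53 and 10.43. The phosphatases PTPN22 and PTPN7, which restrain the relay, differed by 2.69 ± 0.25 and 1.72 ± 0.22, and UBASH3A by 2.58 ± 0.26. VAV1, SKAP1 and CD2AP did not pass, with differences of 0.35, 0.52 and 1.49. CD2AP passed without control replicate 2 (limma adjusted p = 0.0176).

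Thymocyte and T-cell surface genes split by gene. Of 23 measured, 13 were called higher and 3 lower, with a median difference of 1.58. The CD1 lipid-presenting molecules of cortical thymocytes were among the highest calls: CD1E differed by 4.77 ± 0.34, CD1A by 4.52 ± 0.32 and CD1C by 3.09 ± 0.24. CD28, the costimulatory receptor, went from 3.84 and 3.26 to 8.69 and 8.47, and CD5, which dampens receptor signals, from 5.25 and 4.62 to 7.54 and 7.62. TSPAN7, a tetraspanin, gave the largest rise of all named genes, 8.37 ± 0.27 (330-fold), from 3.91 and 3.16 to 11.74 and 12.06. The coreceptor gene CD8A was not called and lay at 4.93 to 5.65 on the 4 arrays. CTLA4 and CRTAM were dim on all 4 arrays and were not called, with differences of -0.19 and -0.33. CD96, LY9 and SLAMF1, receptors of lymphocytes, were called lower, by 2.33, 1.97 and 1.65 as sizes of the difference.

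**Figure D1:**
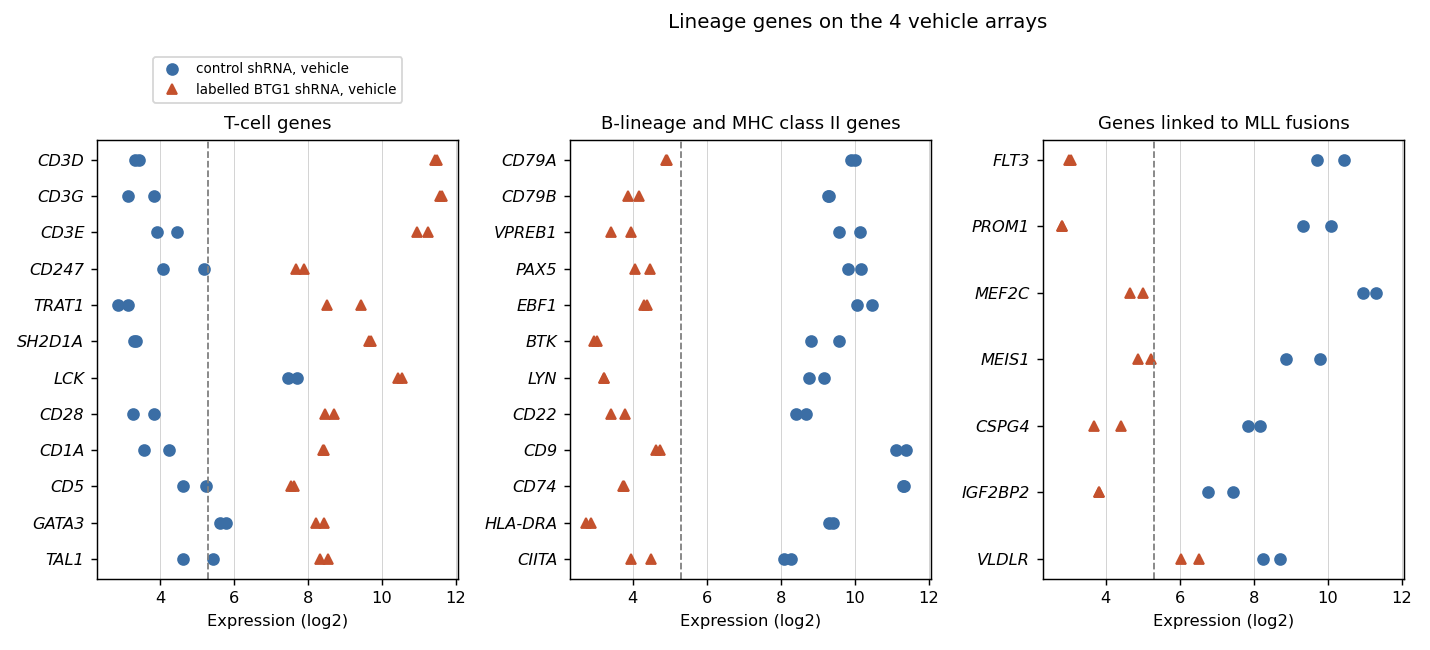
Log2 expression of lineage genes on each vehicle array. Circles are the 2 control shRNA arrays, triangles the 2 arrays labelled BTG1 shRNA, and the dashed line is the median of all values on these arrays, 5.3; CD3D sits at 3.42 and 3.32 in control cells and at 11.44 and 11.49 under the BTG1 label, and the B-lineage and MLL-linked genes lie the other way.

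Among transcription factors of the T lineage, calls were more often higher than lower. Of 17 measured, 7 were called higher and 3 lower, with a median difference of 0.47. TOX, a regulator of thymocyte selection, differed by 5.69 ± 0.25, from 3.97 and 3.50 to 9.21 and 9.65. SATB1, a chromatin organiser of thymocytes, differed by 3.56 ± 0.33 and was well above the median in both groups. GATA3, the T-lineage specification factor, went from 5.77 and 5.62 to 8.21 and 8.43, and ETS1 from 7.66 and 8.10 to 9.84 and 10.08. IKZF2 (Helios) and ZBTB16 differed by 2.62 ± 0.27 and 2.96 ± 0.30. LEF1 was bright in both groups and did not pass, with 10.83 and 11.19 against 11.62 and 11.31. ETS2 was called lower, by 1.53 as the size of the difference. ZBTB7B and BACH2 were called lower too. They did not pass without control replicate 1 (limma adjusted p = 0.0716 and 0.059), nor without replicate 1 (0.102 and 0.169) or replicate 2 (0.147 and 0.317) labelled BTG1 shRNA, and BACH2 not without control replicate 2 (0.0592).

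Of 21 measured members of the Notch pathway, which drives T-cell fate, 4 were called higher (19%) and 1 lower (4.76%). Over all clusters the shares were 8.46% higher and 6.21% lower. The median difference of the list was -0.01. DTX1, a Notch target and regulator, differed by 3.61 ± 0.32, from 5.59 and 4.66 to 8.57 and 8.89. MAML3, a Notch coactivator, fell from 6.88 and 6.95 to 3.78 and 3.75. The other calls (NOTCH3, HES4 and MFNG) were smaller, at 1.18, 1.68 and 1.56. Without replicate 1 labelled BTG1 shRNA NOTCH3 (limma adjusted p = 0.153) and HES4 (0.105) did not pass, without replicate 2 also MFNG (0.0581), and without control replicate 2 NOTCH3 did not (0.0662). The number of higher members was 2 without replicate 1 and 1 without replicate 2 labelled BTG1 shRNA, and the number of lower members was 4 without control replicate 2.

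Among transcription factors activated in T-cell leukemia, 2 of 18 were called higher (11.1%) and 6 lower (33.3%), with a median difference of -0.42. TAL1, a basic helix-loop-helix factor that is silent in normal late thymocytes, was higher by 3.40 ± 0.33, from 5.43 and 4.62 to 8.55 and 8.31. Its relative LYL1 was lower, with 7.81 and 7.36 against 5.39 and 4.89. The ETS factors ERG and SPI1 were lower by 4.90 and 3.11 as sizes of the difference, and HHEX by 1.92. MEF2C, which is shared with the B lineage and with MLL-rearranged leukemia, went from 10.95 and 11.30 to 5.01 and 4.65. MYC and MYB were bright in both groups and were not called, with differences of 0.28 ± 0.19 and 0.49 ± 0.25. The other higher call, LMO1, did not pass without control replicate 2 (limma adjusted p = 0.0733), nor without replicate 1 (0.225) or replicate 2 (0.182) labelled BTG1 shRNA. The lower calls numbered 9 without control replicate 2, and the higher calls 3 without control replicate 1.

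B-lineage genes were lower, beginning with the factors that specify the lineage. Of 21 measured B-lineage transcription factors, 13 were called lower and 2 higher, with a median difference of -1.13. EBF1 went from 10.05 and 10.47 to 4.37 and 4.29, a difference of -5.93 ± 0.21 (SE; limma adjusted p = 7.32e-06). PAX5, the commitment factor of the B lineage, went from 9.82 and 10.16 to 4.45 and 4.06, a difference of -5.74 ± 0.25. IRF4, BCL6 and XBP1 differed by -4.51 ± 0.22, -3.32 ± 0.23 and -2.23 ± 0.19. XBP1 stayed well above the median in both groups, unlike EBF1 and PAX5. IKZF3 (Aiolos) was called higher, from 3.67 and 3.56 to 5.78 and 6.32. SOX4 was the other higher call, by 0.89, and did not pass without replicate 1 (limma adjusted p = 0.0807) or replicate 2 (0.126) labelled BTG1 shRNA.

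The pre-B-cell receptor and its signalling chain gave the most one-sided B-lineage list. Of 18 measured, 15 were called lower and 1 higher, with a median difference of -3.55. VPREB1, part of the surrogate light chain, went from 9.57 and 10.13 to 3.95 and 3.41. CD79A and CD79B, the signalling chains, went from 9.89 and 9.99 to 4.92 and 4.90 and from 9.29 and 9.26 to 4.16 and 3.87. The tyrosine kinases BTK and LYN differed by -6.21 ± 0.26 and -5.74 ± 0.22, and the inhibitory receptors CD22 and CD72 by -4.95 ± 0.21 and -4.22 ± 0.20. The groups were far apart at each of these genes. PRKCB, a protein kinase C isoform of B-cell receptor signalling, was the single higher call, from 4.42 and 3.98 to 7.35 and 7.90. BANK1 and RASGRP3 were dim in both groups and were not called.

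The promoters of 2 of the lower B-lineage genes and of 1 higher T-lineage gene are shown because these genes mark the lineages the comparison turns on. Each is the RefSeq sequence of 300 bases, 250 before and 50 after the start of the gene, 5′ to 3′ on the strand of the gene, on GRCh38.p14. Capitals mark the E-box CAGGTG or its reverse complement CACCTG, searched on both strands, a motif bound by the E proteins that both lymphoid lineages use. The windows are chr19:41877029-41877328 on the plus strand for CD79A, chr22:22244536-22244835 on the plus strand for VPREB1 and chr11:118342656-118342955 on the minus strand for CD3D.
CD79A: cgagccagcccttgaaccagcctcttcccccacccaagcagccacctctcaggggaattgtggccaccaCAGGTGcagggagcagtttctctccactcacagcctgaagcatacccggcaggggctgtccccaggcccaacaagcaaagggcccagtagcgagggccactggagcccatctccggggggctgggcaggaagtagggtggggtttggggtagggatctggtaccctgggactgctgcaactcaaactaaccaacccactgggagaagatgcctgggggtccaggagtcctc
VPREB1: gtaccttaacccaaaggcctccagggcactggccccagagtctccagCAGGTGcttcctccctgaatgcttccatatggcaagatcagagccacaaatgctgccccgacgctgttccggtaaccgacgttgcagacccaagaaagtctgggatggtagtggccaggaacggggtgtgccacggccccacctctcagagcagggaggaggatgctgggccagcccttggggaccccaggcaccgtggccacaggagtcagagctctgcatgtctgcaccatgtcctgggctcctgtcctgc
CD3D: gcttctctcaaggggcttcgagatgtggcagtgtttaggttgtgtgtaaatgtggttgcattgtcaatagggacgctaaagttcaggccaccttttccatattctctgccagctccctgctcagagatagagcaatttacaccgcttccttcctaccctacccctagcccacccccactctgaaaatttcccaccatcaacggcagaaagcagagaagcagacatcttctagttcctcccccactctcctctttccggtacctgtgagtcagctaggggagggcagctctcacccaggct
The motif was found 1 time in the CD79A window, 1 time in the VPREB1 window and 0 times in the CD3D window. It occurs in 7231 of 35116 RefSeq promoter windows of this length (20.6%). A match describes the letters only.

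B-cell surface genes were called less often, and most were dim on the control arrays. Of 23 measured, 8 were called lower and 1 higher, with a median difference of -0.51. Only 9 of the 23 lay above the median on the control arrays, which left little room for a fall in the rest. On the arrays labelled BTG1 shRNA 1 of the 23 did so. IL7R, the interleukin-7 receptor chain on which lymphoid precursors depend, went from 9.96 and 10.53 to 3.12 and 3.30, a difference of -7.04 ± 0.26. CD9, a tetraspanin of early B cells, went from 11.11 and 11.38 to 4.72 and 4.62. CD38 and CD37 were lower by 3.74 and 3.88 as sizes of the difference. MS4A1 (CD20), CD40 and CD34 were dim on all 4 arrays and were not called. CD40 and CD34 passed as lower without control replicate 2 (limma adjusted p = 0.0438 and 0.0289), where the lower calls numbered 12, and MS4A1 and CD34 with the replicate block (0.0332 and 0.0232). CR2, the higher call, did not pass without replicate 1 (limma adjusted p = 0.113) or replicate 2 (0.111) labelled BTG1 shRNA.

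Of 11 measured genes of V(D)J recombination, the cutting and joining of receptor genes, 4 were called lower and 1 higher, with a median difference of -0.66. DNTT, which adds untemplated bases, went from 7.62 and 8.27 to 5.08 and 5.48. LIG4, the ligase that seals the joint, went the other way, from 4.18 and 4.72 to 7.96 and 8.20. The recombinase genes RAG1 and RAG2 were called lower by 0.88 and 1.70 as sizes of the difference, and DCLRE1C by 1.53. Without replicate 1 labelled BTG1 shRNA, RAG1 (limma adjusted p = 0.102), RAG2 (0.143) and DCLRE1C (0.098) did not pass, which left 1 lower gene. Without replicate 2 of that label RAG1 (0.0717) and RAG2 (0.125) did not pass.

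Genes linked to MLL-fusion leukemia were lower on the arrays labelled BTG1 shRNA. Of 24 measured, 12 were called lower and 1 higher, with a median difference of -1.09. The HOXA genes of the list were matched to no transcript cluster and were not read. FLT3, a receptor tyrosine kinase that MLL-rearranged blasts express at high level, went from 9.72 and 10.43 to a mean of 3.03, a difference of -7.04 ± 0.25. PROM1 (CD133) went from 9.32 and 10.09 to 2.82 and 2.81, and MEIS1, the homeodomain cofactor of HOX proteins, from 8.86 and 9.78 to 5.21 and 4.88. CSPG4 (NG2), the surface antigen used to recognise MLL-rearranged blasts, differed by -3.95 ± 0.32, IGF2BP2 by -3.27 ± 0.30 and VLDLR by -2.22 ± 0.23. AFF1, the fusion partner, did not pass, with 8.45 and 8.91 against 7.81 and 7.55 (limma adjusted p = 0.0644). It passed as lower with the replicate block (limma adjusted p = 0.0263), after quantile normalization (0.0256), with the filter on dim clusters (0.043) and with a trend in the spread (0.0444). SPTBN1 was the only higher call of the list and did not pass without control replicate 1 (limma adjusted p = 0.0852), nor without replicate 1 (0.143) or replicate 2 (0.12) labelled BTG1 shRNA.

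Few homeobox genes outside the HOXA cluster were called, and most were dim. Of 18 measured HOXB, HOXC, HOXD and TALE genes 1 was called higher and 1 lower, shares of 5.56% each. Over all clusters the shares were 8.46% higher and 6.21% lower. The median difference of the list was -0.23, and 0.03 after quantile normalization. Only 3 of the 18 lay above the median on the control arrays, and 5 on the arrays labelled BTG1 shRNA. HOXC10 was higher, from 4.24 and 3.54 to 5.81 and 6.40. TGIF1 was lower by 1.02, and did not pass without control replicate 1 (limma adjusted p = 0.0844), nor without replicate 1 (0.0523) or replicate 2 (0.187) labelled BTG1 shRNA. With control replicate 2 left out the lower calls numbered 6.

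The MHC class II pathway, by which B cells present peptides to helper T cells, was called lower in most members. Of 12 measured members 8 were called lower and 1 higher, with a median difference of -2.61, and each count was the same without any one of the 4 vehicle arrays. CD74, the invariant chain, gave the largest fall of all named genes, from 11.30 and 11.32 to 3.73 and 3.77, a difference of -7.56 ± 0.20 (SE; limma adjusted p = 4.84e-06). The chain genes HLA-DRA, HLA-DPA1 and HLA-DPB1 differed by -6.56 ± 0.22, -6.41 ± 0.20 and -4.82 ± 0.21. CIITA, the transactivator of the class II genes, went from 8.07 and 8.28 to 4.48 and 3.94. RFX5 and RFXAP, DNA-binding subunits that act with CIITA, did not pass, with differences of 0.19 ± 0.28 and 0.24 ± 0.22. LGMN, a lysosomal protease, was the higher call, from 4.60 and 3.88 to 7.64 and 8.42.

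MHC class I presentation, which nearly all nucleated cells use, changed less. Of 13 measured, 6 were called lower and 2 higher, with a median difference of -0.78. HLA-E and HLA-F were lower by 1.76 and 1.89 as sizes of the difference. NLRC5, the class I transactivator, differed by -1.74 ± 0.24, to 5.23 and 5.28. ERAP2, a peptide-trimming protease, was higher by 2.86 ± 0.26, and its relative ERAP1 was lower. ERAP1 did not pass without replicate 1 (limma adjusted p = 0.0645) or replicate 2 (0.0934) labelled BTG1 shRNA. The lower calls numbered 4 without either array labelled BTG1 shRNA, and 1 higher call was left without either of them or without control replicate 1.

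**Figure D2:**
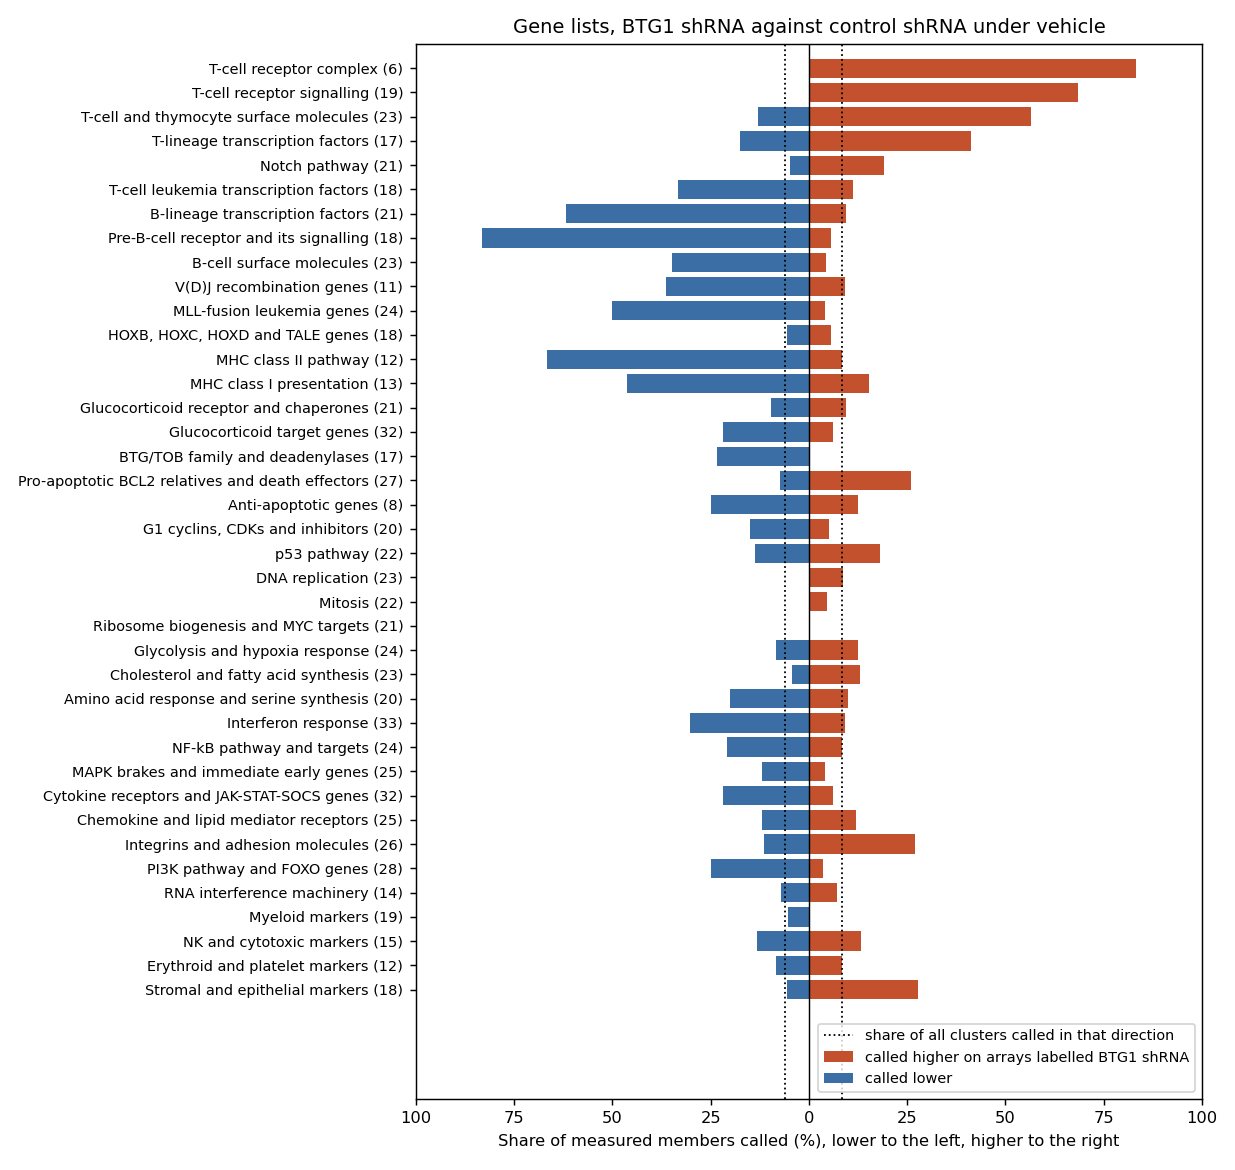
Share of the measured members of each gene list (number measured in brackets) called higher (right) or lower (left) on the arrays labelled BTG1 shRNA under vehicle, in percent. Dotted lines are the shares of all clusters, 8.46% higher and 6.21% lower; the T-cell receptor lists reach furthest right and the pre-B-cell receptor and MHC class II lists furthest left.

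The glucocorticoid receptor gene was lower without any added glucocorticoid. NR3C1 stood at 9.72 and 10.24 on the control arrays and at 7.77 and 7.12 on the arrays labelled BTG1 shRNA, a difference of -2.53 ± 0.28 (SE; limma adjusted p = 0.000733) or 5.77-fold. The groups did not overlap and the gene stayed above the median in both. Of the 21 measured genes for the receptor, its chaperones and its coregulators, 2 were called lower and 2 higher (9.52% each). The median difference was 0.00, so most partners did not follow NR3C1. FKBP4, the immunophilin that favours transport of the receptor to the nucleus, was higher, from 6.49 and 7.05 to 8.71 and 9.16. FKBP5, its inhibitory counterpart and itself a glucocorticoid target, was not called, with 7.85 and 8.86 against 8.78 and 8.57. Its cluster carries a second symbol. The coactivators NCOA1 and NCOA2 went opposite ways, by 1.97 ± 0.39 and -1.66 ± 0.28. NCOA1 did not pass without control replicate 1 (limma adjusted p = 0.0611) or without replicate 1 labelled BTG1 shRNA (0.0871), nor NCOA2 without the latter (0.0554).

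Genes that glucocorticoids are known to regulate were read here without the hormone. Of 32 measured, 7 were called lower (21.9%) and 2 higher (6.25%), with a median difference of -0.45. TSC22D3 (GILZ), a direct receptor target, went from 6.79 and 6.81 to 4.29 and 4.18, a difference of -2.57 ± 0.17 (SE; limma adjusted p = 6.51e-05). DUSP1, a phosphatase of MAP kinases, went from 9.53 and 9.59 to 7.84 and 7.86, and NFKBIA, the inhibitor of NF-kB, from 8.66 and 8.86 to 7.07 and 7.28. SLA, an adaptor that lowers T-cell receptor levels, was higher, from 7.07 and 7.64 to 9.71 and 10.22, and the other higher call was ZBTB16, given above. These 5 calls held without any one vehicle array. GADD45B, KLF9 and ISG20 were lower by 1.16, 1.12 and 0.99 as sizes of the difference. GADD45B did not pass without replicate 2 labelled BTG1 shRNA (limma adjusted p = 0.101), and ISG20 not without replicate 1 (0.0647) or replicate 2 (0.111) of that label. KLF9 did not pass without control replicate 1 (limma adjusted p = 0.0765), nor without replicate 1 (0.0671) or replicate 2 (0.159) labelled BTG1 shRNA. BCL2L11 (BIM), a killer protein that glucocorticoids induce in lymphoid cells, was dim and not called, with 4.42 and 4.52 against 4.93 and 4.64. The lower calls numbered 12 without control replicate 2, 4 without replicate 1 and 3 without replicate 2 labelled BTG1 shRNA.

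**Figure D3:**
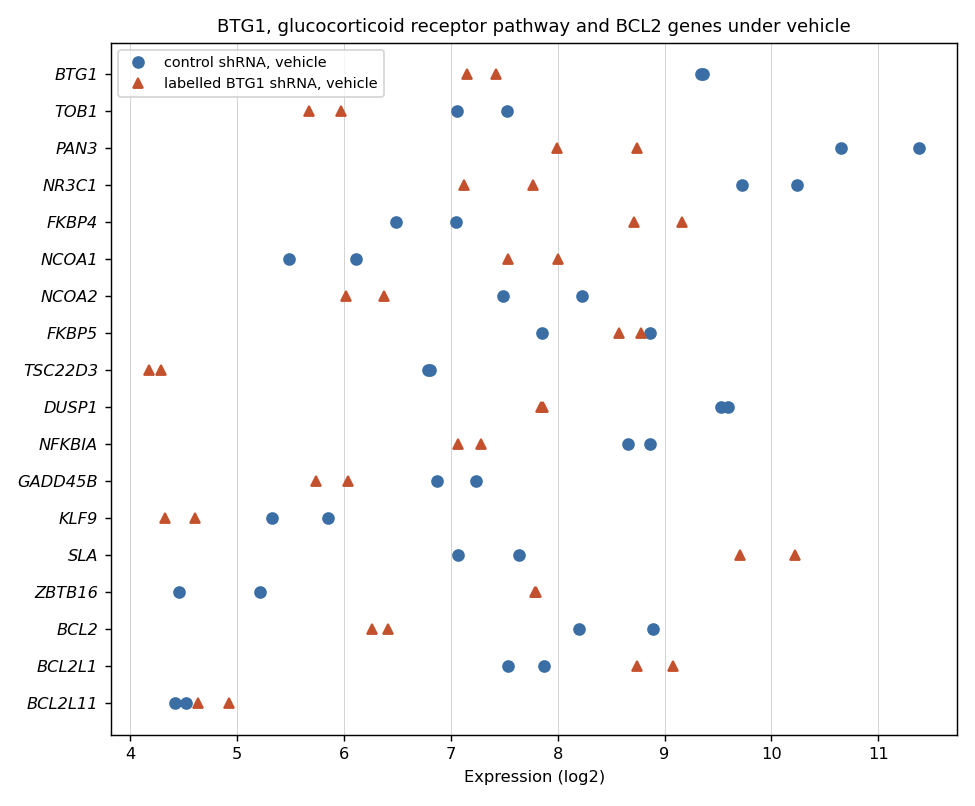
Log2 expression of BTG1 and relatives, glucocorticoid receptor partners, glucocorticoid-regulated genes and BCL2 relatives on each vehicle array (circles, control shRNA; triangles, labelled BTG1 shRNA). NR3C1 lies at 9.72 and 10.24 against 7.77 and 7.12 and TSC22D3 at 6.79 and 6.81 against 4.29 and 4.18, while FKBP5 and BCL2L11 are not called.

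In the BTG/TOB family and its deadenylases, 4 of 17 measured members were called lower (23.5%) and 0 higher, with a median difference of -0.09. Besides BTG1, TOB1, a family member that also binds CCR4-NOT, went from 7.06 and 7.53 to 5.67 and 5.97. PAN3, a subunit of the PAN2-PAN3 deadenylase, went from 10.65 and 11.38 to 7.99 and 8.74. TOB2 was the weakest of the calls, at -0.79 ± 0.22, and did not pass without control replicate 1 (limma adjusted p = 0.159), nor without replicate 1 (0.2) or replicate 2 (0.227) labelled BTG1 shRNA. BTG3 was not called, with 6.76 and 7.32 against 6.90 and 7.59. PRMT1, the methyltransferase partner of BTG1, was not called either, with 9.02 and 9.20 against 9.13 and 9.53, on a cluster that carries a second symbol. The deadenylase subunits CNOT2, CNOT6 and CNOT7 did not pass, with differences of 0.58, 0.60 and 0.77, and passed as higher without control replicate 2 (limma adjusted p = 0.048, 0.0426 and 0.0116). Of 14 genes of the RNA interference machinery, through which an shRNA acts, 1 was called higher and 1 lower. These shares, 7.14% each, lay near those over all clusters, 8.46% higher and 6.21% lower. With the replicate block 4 were higher. TNRC6C was higher by 2.03 ± 0.18 and AGO2 lower by 1.33, and AGO2 did not pass without replicate 1 labelled BTG1 shRNA (limma adjusted p = 0.0501).

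Survival genes moved in both directions. Of 8 measured anti-apoptotic genes 2 were called lower (25%) and 1 higher (12.5%). Without control replicate 2 these were 3 and 2, and 1 was left as lower without any one of the other 3 vehicle arrays. BCL2 went from 8.20 and 8.89 to 6.26 and 6.41, a difference of -2.21 ± 0.29 (SE; limma adjusted p = 0.00182), and its relative BCL2L1 (BCL-XL) from 7.54 and 7.87 to 8.74 and 9.08. BCL2L1 did not pass without replicate 2 labelled BTG1 shRNA (limma adjusted p = 0.0807). Of 27 measured pro-apoptotic genes and death effectors 7 were called higher (25.9%) and 2 lower (7.41%), with a median difference of 0.09. BNIP3 and BNIP3L, mitochondrial proteins of the BH3 type that respond to low oxygen, were higher by 4.17 ± 0.49 and 2.04 ± 0.20. BNIP3L lies in the first stretch of chromosome 8 given below, where 48.7% of the genes read were called higher. TNFRSF10B, a receptor for the death ligand TRAIL, went from 4.35 and 3.85 to 5.61 and 6.17. BAX, a pore former of mitochondria, went from 8.13 and 7.88 to 7.03 and 6.96 and did not pass without replicate 1 (limma adjusted p = 0.0609) or replicate 2 (0.087) labelled BTG1 shRNA. The higher calls of the pro-apoptotic list numbered 3 and 4 without replicates 1 and 2 of that label, and the lower calls 0 and 1. Without either control array they numbered 4.

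Genes of cell division differed little at this precision. Of 23 DNA replication genes 2 were called higher (8.7%), of 22 mitosis genes 1 (4.55%) and of 21 ribosome biogenesis and MYC target genes 0, and no member of these lists was called lower. Their median differences were 0.33, 0.22 and 0.28. The higher calls in these lists numbered 5, 4 and 4 without control replicate 2, and without any one of the other 3 vehicle arrays they numbered 0. RRM2, a subunit of ribonucleotide reductase, was bright throughout, with 11.29 and 11.36 against 12.19 and 11.99 (limma adjusted p = 0.0766, and 0.0464 with the replicate block). Of 20 G1 regulators 3 were called lower (15%) and 1 higher (5%). Without control replicate 2 these were 5 and 4, without replicate 1 labelled BTG1 shRNA 1 and 1, and without replicate 2 of that label 1 and 0. CDKN1A (p21), the cyclin-dependent kinase inhibitor induced by p53, went from 7.61 and 7.42 to 5.27 and 5.03. TP53I3, also a p53 target, went the other way, from 4.44 and 4.02 to 6.26 and 6.41. Of 22 p53 pathway genes 4 were called higher and 3 lower, and without control replicate 2 these were 5 and 7. Without either array labelled BTG1 shRNA they were 2 and 1.

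Single metabolic enzymes differed in both directions. Of 24 glycolysis and hypoxia response genes 3 were called higher (12.5%) and 2 lower (8.33%), with a median difference of 0.12. These shares lay near those over all clusters, 8.46% higher and 6.21% lower. ENO2, the neuronal enolase, went from 4.35 and 3.84 to 8.55 and 8.97, and ALDOC, an aldolase, from 7.48 and 7.47 to 9.53 and 9.68. PFKM, the muscle form of phosphofructokinase, went from 8.26 and 8.81 to 4.18 and 4.30, and PFKL, the liver form, was lower by 1.18. PFKL did not pass without replicate 1 labelled BTG1 shRNA (limma adjusted p = 0.0645). Of 23 cholesterol and fatty acid synthesis genes 3 were called higher (13%) and 1 lower (4.35%), also near the shares over all clusters. The list was led by DHCR7, the last enzyme of cholesterol synthesis, from 7.98 and 8.34 to 10.66 and 10.98. Of 20 genes of the amino acid response 4 were called lower (20%) and 2 higher (10%). PCK2, the mitochondrial PEP carboxykinase, was lower by 2.27, GLDC, which breaks down glycine, lower by 1.80, and ASNS, asparagine synthetase, higher by 1.81. Without replicate 2 labelled BTG1 shRNA 1 cholesterol or fatty acid gene was left as higher, and without control replicate 2 there were 6. The lower calls of that list numbered 2 without control replicate 1 and 0 without either array labelled BTG1 shRNA. Of the amino acid genes 1 was left as higher without replicate 2 of that label.

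Interferon response genes were more often lower than higher. Of 33 measured, 10 were called lower (30.3%) and 3 higher (9.09%), with a median difference of -0.54. Over all clusters the shares were 6.21% lower and 8.46% higher. OAS2, which makes the activator of RNase L, went from 7.17 and 8.07 to 3.48 and 3.19. TRIM22 went from 6.41 and 7.80 to 2.93 and 2.79, and BST2 (tetherin) from 5.63 and 5.90 to 3.47 and 3.28. OAS1, IFIT3 and IFI35 were lower by 1.87, 1.77 and 1.43. IFITM1 was higher, from 5.37 and 5.39 to 7.76 and 7.80. The lower calls numbered 6 without either array labelled BTG1 shRNA and the higher calls 1.

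In the NF-kB list 5 of 24 measured genes were called lower (20.8%) and 2 higher (8.33%), against 6.21% and 8.46% over all clusters. IL1B, the cytokine interleukin-1 beta, went from 7.96 and 8.37 to 3.18 and 3.28, a difference of -4.94 ± 0.21. CD83, a surface marker of activation, was higher by 1.29 ± 0.18. The lower calls numbered 11 without control replicate 2, 3 without replicate 1 and 2 without replicate 2 labelled BTG1 shRNA. The higher calls numbered 4 without control replicate 2 and 1 without replicate 1 labelled BTG1 shRNA. Of 25 MAPK brakes and immediate early genes 3 were called lower (12%) and 1 higher (4%). The lower ones included DUSP1 and DUSP6, a phosphatase of ERK that went from 6.15 and 6.37 to 3.67 and 3.59. The lower calls of that list numbered 9 without control replicate 2. The higher calls numbered 2 without control replicate 1 and 0 without either array labelled BTG1 shRNA.

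Of 32 cytokine receptor and JAK-STAT genes 7 were called lower (21.9%) and 2 higher (6.25%), with a median difference of -0.07. Over all clusters the shares were 6.21% lower and 8.46% higher. STAT3, bright in both groups, went from 8.10 and 8.44 to 10.20 and 10.45. KIT, the receptor of stem cell factor, went from 3.47 and 2.92 to 5.58 and 5.44. IL7R, given above, and IL6R were lower. The lower calls numbered 5 without replicate 1 and 3 without replicate 2 labelled BTG1 shRNA. Of 25 chemokine and lipid mediator receptors 3 were called higher and 3 lower (12% each). Most were dim, with 4 of the 25 above the median on the control arrays and 6 on the arrays labelled BTG1 shRNA. S1PR1, which guides lymphocytes out of lymphoid organs, gave the largest difference, from 3.62 and 3.27 to 6.62 and 6.32. CXCR4, the receptor that holds blasts in the marrow, was bright on all 4 arrays and not called, with 9.45 and 9.88 against 10.54 and 10.22. It passed as higher without control replicate 2 (limma adjusted p = 0.0321). Without replicates 1 and 2 labelled BTG1 shRNA the lower calls of these receptors numbered 2 and 0, and 1 higher call was left each time.

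Adhesion genes showed large single changes. Of 26 measured, 7 were called higher (26.9%) and 3 lower (11.5%), with a median difference of 0.20. Over all clusters the shares were 8.46% higher and 6.21% lower. SELPLG (PSGL-1), the selectin ligand of leukocytes, went from 4.29 and 3.50 to 8.01 and 8.25. JAM3 went from 4.62 and 4.16 to 6.96 and 7.34, and the integrin chain ITGAL (LFA-1) from 5.39 and 5.19 to 6.55 and 6.71. CD44, the hyaluronan receptor, fell from 6.64 and 7.03 to 3.19 and 3.03. The integrin chains ITGB5 and ITGA5 were lower by 1.65 and 1.33. The higher calls numbered 3 without replicate 2 labelled BTG1 shRNA, and the lower calls 6 without control replicate 2.

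Genes of the PI3K pathway, which signals below the antigen and cytokine receptors, were mostly lower where they were called. Of 28 measured, 7 were called lower (25%) and 1 higher (3.57%), against 6.21% and 8.46% over all clusters. The median difference was 0.16 (-0.02 after quantile normalization). The catalytic subunits PIK3CD and PIK3CG, the leukocyte forms, were lower by 1.93 and 2.07 as sizes of the difference, with PIK3CD at 8.04 and 8.06 against 6.11 and 6.13. INPP5D (SHIP1), the phosphatase that opposes them, went from 9.27 and 9.26 to 7.20 and 6.70, and PHLPP1, a phosphatase of AKT, differed by -2.47 ± 0.27. INSR, the insulin receptor, was lower by 1.89 ± 0.25. SESN3, a FOXO target, was the higher call, from 4.09 and 4.48 to 6.32 and 6.55. With control replicate 2 left out the higher calls numbered 4.

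The lists of other cell types differed in their share of calls. Of 19 myeloid genes 1 was called lower and 0 higher, and of 12 erythroid and platelet genes 1 was called each way, where the medians were -0.45 and -0.43. Of 15 NK and cytotoxic genes 2 were called higher, GZMA and CTSW, and 2 lower, NKG7 and CST7, which stayed above the median in both groups. Of 18 stromal and epithelial genes 5 were called higher (27.8%) and 1 lower (5.56%), against 8.46% and 6.21% over all clusters. CDH2 (N-cadherin) went from 3.26 and 3.04 to 7.01 and 7.35, and THY1, which thymocytes and fibroblasts can carry, from 4.52 and 3.90 to 7.52 and 7.55. PDGFRB was the lower call, from 6.70 and 6.57 to 4.06 and 4.09. With the replicate that read high at dim clusters as the only control array, the lower calls of these 4 lists numbered 6 (myeloid), 8 (erythroid and platelet), 6 (NK) and 5 (stromal). Without replicate 2 labelled BTG1 shRNA 3 stromal and epithelial genes were left as higher, and the single myeloid, erythroid and platelet calls were lost.

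The largest changes of the whole table included genes on and off the lists. The 15 largest rises held, besides the genes above, ITM2A, a membrane protein of thymocytes (6.12 ± 0.24), GPR174, a receptor of lymphocytes (5.68 ± 0.40), and the genes NETO2, ALDH1A2, MAGEB2, SCRN1 and PFN2, with differences of 5.47 to 5.90. The 15 largest falls held, besides those above, PRSS12 (-6.99 ± 0.19), DOK3, an adaptor of B-cell and myeloid signalling (-6.45 ± 0.24), LAMP5 (-6.24 ± 0.23), NOG, a BMP antagonist (-6.08 ± 0.28), and MT1G, a metallothionein (-6.04 ± 0.35). PRSS12 stood at 10.74 and 10.69 against 3.86 and 3.59. All these genes were below the median in one group and above it in the other.

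Large differences were also seen at clusters above the median in both groups. Of 7952 such clusters 1156 were called, where 2623 of all 17881 were. Among the 6580 of them with 1 symbol, 9.53% were called higher and 5.26% lower. These shares lay near those over all clusters, 8.46% and 6.21%. H2BC26, a histone gene, had the largest rise, 4.67 ± 0.55, from 6.78 and 5.28 to 10.84 and 10.56, and H3C3, also a histone gene, fell from 11.41 and 11.19 to 7.02 and 7.13. CHI3L2, GRK3 and CNN2 were higher by 4.28 ± 0.36, 4.05 ± 0.27 and 3.87 ± 0.19. GRK3 is a kinase that silences G-protein-coupled receptors, and CNN2 a calponin of the actin skeleton. TRAF3IP3, MYO7B, NEK7, ALOX5AP and CD82 were higher by 3.29 to 3.58. LBH, a transcription cofactor, fell from 10.26 and 10.37 to 6.09 and 6.07, and HSPB1, the small heat shock protein HSP27, from 9.81 and 9.60 to 5.75 and 5.44. IRAG2, CLEC11A, PRKCE, ABHD4 and ECI1 were lower by 3.15 to 3.77 as sizes of the difference.

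The prednisolone arrays gave a second reading of the same shRNA groups that shares no array with the vehicle comparison, although all 8 arrays share the estimate of the spread. Of the 2623 clusters called under vehicle, 1857 (70.8%) were called in the same direction there, 1081 higher and 776 lower. Another 15 were called in the opposite direction. The share of all clusters called under prednisolone is not given here, so the 70.8% has no reference beside it. The shRNA and a difference in the cells cannot be told apart on the prednisolone arrays either. CD3D differed by 7.83 there, CD74 by -7.42, FLT3 by -7.63 and EBF1 by -5.55. BTG1 differed by -2.64 and NR3C1 by -3.51. A test of the difference between the vehicle and prednisolone values of the shRNA difference called 24 clusters (0.134%). The count was 0 without either array labelled BTG1 shRNA and 15 without control replicate 2.

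Called genes were not spread evenly along the chromosomes. Genes above the median in both groups were put in the order of GRCh38.p14 and cut into 251 blocks of about 25 neighbours, a description chosen after the values were seen and given without a test. In 5 blocks the median difference was over 1 (1.03 to 1.67), and all 5 lay on chromosomes 7 and 8. The other 246 blocks had medians of -0.61 to 0.93. Of all 6580 clusters with 1 symbol above the median in both groups, 9.53% were called higher and 5.26% lower. On chromosome 7 the first 3 blocks, 81 genes from SUN1 to CHCHD2, had a median difference of 1.29, with 56 called higher (69.1%) and 2 lower (2.47%). The remaining 211, ZNF680 to DYNC2I1, had a median of -0.21, with 11 higher (5.21%) and 25 lower (11.8%). On chromosome 8 the first 3 blocks, 78 genes from FBXO25 to MCM4, had a median of 1.01, with 38 called higher (48.7%) and 1 lower (1.28%). The remaining 151 genes had a median of -0.35, with 3 higher (1.99%) and 20 lower (13.2%). On the prednisolone arrays the medians of the first stretches were 1.14 and 0.71, and those of the rest -0.48 and -0.56. DNA copy number was not measured on these arrays and was not tested.

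**Figure D4:**
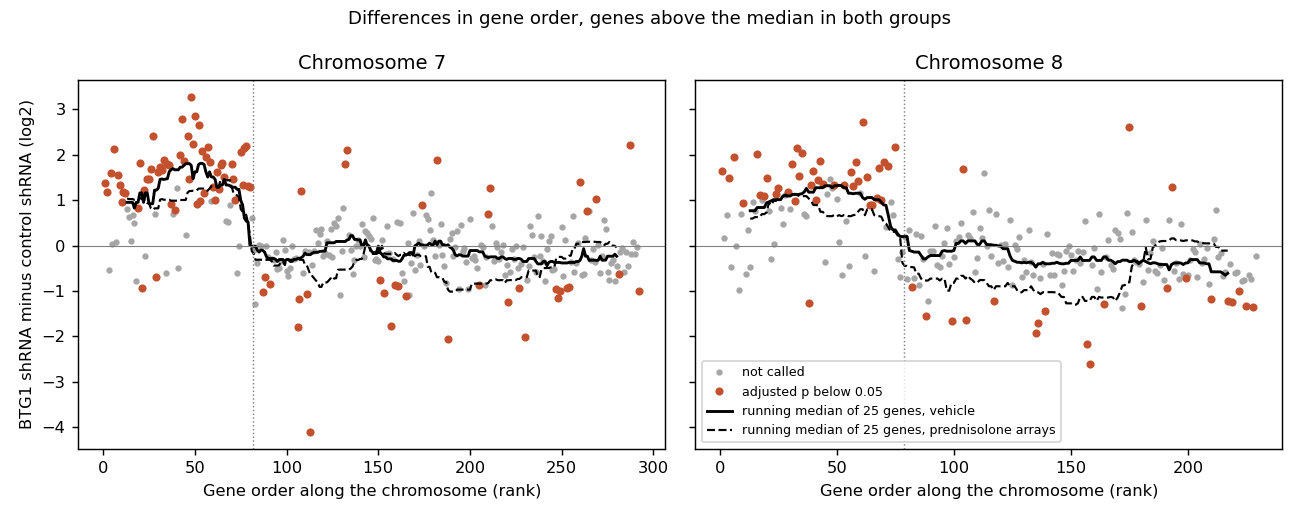
Difference between BTG1 shRNA and control shRNA under vehicle (log2) for genes above the median in both groups, in gene order along chromosomes 7 and 8. Orange points are called genes. Lines are running medians of 25 genes, solid for vehicle and dashed for the prednisolone arrays. The dotted line marks the end of the first stretch, around which the solid line drops from above 1 to below 0. On the prednisolone arrays the first chromosome 8 stretch had a median of 0.71.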

How the data were processed

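The cells' total RNA was labelled with biotin and read on exon arrays, with probes grouped by the core annotation of hg18 per the labels. Partek and robust multi-array averaging (RMA) are named per the submitters' processing notes, with versions not given in the sources used here. In the table, the deposited score values are the authors' log2 expression values with most decimal points lost, so the unit is not the plain log2 table the tests were written for. Of 143048 values 153 kept a point, between 2.47 and 12.25. The point was restored with 1 digit before it, or 2 digits where a value began with 1 (2831 values). Correlations between arrays were 0.446 to 0.587 as deposited and 0.872 to 0.995 restored. No filter or further normalization was applied.

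limma 3.58.1 in R 4.3.3 fitted 4 group means to all 8 arrays (lmFit, eBayes; 4 residual and 3.51 prior degrees of freedom), with Benjamini-Hochberg adjustment over the 17881 clusters of a contrast and a threshold of 0.05. The script was tested on simulated data in which 200 of the 17881 clusters were changed. It recovered 38% of differences of 1, 98% of those of 2 or -2 and 100% of those of 4. A gene that was not called can therefore still differ by 1. Platform annotation gave 14432 clusters 1 symbol, 2408 several and 1041 none. Of 927 genes in 39 lists, 750 matched, by the cluster with the highest mean, and 92 lay only on clusters shared with other genes and were not used. Lists overlap. Gene order and promoters are from RefSeq tables for GRCh38.p14.

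Genes named are the 15 largest rises and falls, the 10 largest each way among genes above the median in both groups, up to 6 called members per list and direction, up to 3 members per list that did not pass, cell-type markers and a fixed set of BTG1, receptor and lineage genes. The genes that end the chromosome stretches were named after their values were seen. The members and lists were chosen with earlier results of these data known. Alternatives were other normalizations, a filter, the replicate block, a trend, array weights, fewer clusters, the 4 vehicle arrays alone, each vehicle array left out, and the lowest cluster per gene. The number of arrays limits the precision.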

Additional observations from a re-analysis of the deposited data

Results flagged for a closer look

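In 9 of the genes examined the shRNA difference under vehicle differed from that under prednisolone by the interaction term of the model (limma, adjusted over all clusters). Each value below is the difference under vehicle minus the difference under prednisolone, on the log2 scale.

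In 7 of them the difference under vehicle was the more positive. SGK1, a glucocorticoid-induced kinase, gave 4.42 (limma adjusted p = 0.00862). It was dim in all vehicle arrays, at 3.81 to 4.20, and on the prednisolone arrays it stood at 8.48 and 9.07 with control shRNA against 3.91 and 4.20 under the BTG1 label. P2RY14, a receptor for UDP-sugars, gave 3.92, and SLA, the adaptor that was higher by 2.61 under vehicle and lower by 1.15 under prednisolone, gave 3.76. GSDME, a gasdermin of cell death, gave 3.02, TXNIP, a regulator of glucose uptake, 2.56, PIK3IP1, an inhibitor of PI3K, 2.46 and NFKBIA 2.08. The control arrays read high under prednisolone at each of these 7 genes.

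IL1B and PDGFRB went the opposite way. IL1B gave -3.41 (limma adjusted p = 0.0174) and PDGFRB -2.36. Both were lower under the BTG1 label with vehicle, and the control arrays fell toward that level with prednisolone: IL1B from 7.96 and 8.37 to 4.91 and 5.03, PDGFRB from 6.70 and 6.57 to 4.74 and 4.34. None of these 9 would be called without replicate 1 or without replicate 2 labelled BTG1 shRNA under vehicle, where the interaction called 0 clusters.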

How the results depend on the processing

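Of 184 called genes named in the text, 157 kept direction and call under every alternative in which they were tested, including each vehicle array left out. Among the values of all named genes under alternatives, 84 lost a call, 29 gained one and 11 changed sign, the last at genes that were not called. Changes of sign after quantile normalization were CD2 (0.02), CTLA4 (0.05), RASGRP3 (0.16) and RFX5 (-0.00). With single arrays left out BTG3 ranged from -0.15 to 0.54, CNOT2 from -0.03 to 1.19, COL1A1 from -0.63 to 0.33, FKBP5 from -0.18 to 0.82, RFX5 from -0.11 to 0.49 and RFXAP from -0.01 to 0.49.

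The number of called clusters was 4553 with the replicate block, 1289 to 5958 with single arrays left out, and within 1.5 times of 2623 otherwise. The number over 2-fold was 2356 to 4283 with single arrays left out. The interaction called 14 clusters with arrays centred on their medians, 52 with the filter on dim clusters, 96 with the replicate block, 11 with array weights, 8 without clusters that needed 2 digits before the point, and 0 to 24 with single arrays left out. The cause of these shifts was not tested. Of 1014 counts of list members under alternatives, 802 lay within 1.5 times of the reported count.

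Same-numbered arrays of the 2 shRNA groups under vehicle deviated together (correlation 0.425). Over all pairs of groups the correlation was positive, at 0.007 to 0.593. In every group replicate 1 also had the higher median and the narrower interquartile range. The labels do not state a pairing, and the main model used none. With the replicate block 4553 clusters were called, against 2623 without it, so the count depends on this choice. Whether same-numbered arrays were prepared together was not tested. A single array per group left out assumes that the lone array varies like the other groups. Control vehicle arrays received a weight of 0.4 against 1.76 for the arrays labelled BTG1 shRNA. Signal near the floor, the 2 arrays per group and genes on shared clusters limit what can be read.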

Other observations

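Dim clusters carried an offset between the control arrays. Over the 7931 clusters below the median in both groups, control replicate 1 minus replicate 2 had a median of 0.36, against 0.08 for the arrays labelled BTG1 shRNA, and 447 of these clusters were called. The median difference between the shRNA groups was -0.27 over these clusters and 0.18 over the 7952 clusters above the median in both groups. Of the 1512 higher calls 572 were at clusters below the median on the control arrays and above it on the arrays labelled BTG1 shRNA. Of the 1111 lower calls 448 were at clusters above the median on the control arrays and below it under the BTG1 label.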
